A study of Mus musculus with 12 samples.

Results

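Antigen presentation is described here through 10 mouse genes measured by RNA sequencing of testis. The genes were chosen by symbol, as the rows H2-K1, H2-D1, B2m, Tap1, Tapbp, Psmb8, Cd74, H2-Aa, H2-Ab1 and H2-Eb1 of a table of 21004 genes, and all 10 were found. All 10 had at least 1 FPKM in at least 3 of the 12 libraries, the filter on low values that 14675 genes passed. Levels are in FPKM, reads scaled to the length of the transcript and to the total of the library, which can be set side by side between genes. The testes were of ICR mice aged 8 weeks, and the 4 groups of 3 libraries are control, busulfan, L.J. at a dose of 10 mg/kg, and the combination of busulfan with that dose, called busulfan plus L.J. here. The alkylating drug busulfan is used to deplete germ cells, and the design text names its damage to the testis together with FMT, which the labels do not spell out any more than they do L.J. No dose or time is given with busulfan in the labels. Separate animals within a group are not stated, so the p-values measure the spread between these libraries, which may be technical.

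Cells show peptides to T cells on major histocompatibility complex (MHC) molecules, which in the mouse are called H2. In the class I path, peptides cut by the proteasome are pumped into the endoplasmic reticulum by the transporter TAP and loaded onto a class I heavy chain paired with beta-2-microglobulin, and nearly all nucleated cells can do this. In the class II path, professional antigen-presenting cells such as macrophages, dendritic cells and B cells load peptides from endosomes onto alpha and beta chains that were first held by the invariant chain. In the testis, macrophages of the interstitium are the best known class II cells, while germ cells are known for low class I. H2-K1 and H2-D1 encode class I heavy chains and B2m encodes beta-2-microglobulin. Tap1 encodes a TAP subunit, Tapbp encodes tapasin, which bridges TAP and the class I heavy chain, and Psmb8 encodes a catalytic subunit of the immunoproteasome. H2-Aa encodes a class II alpha chain, H2-Ab1 and H2-Eb1 encode class II beta chains, and Cd74 encodes the invariant chain.

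Of the 10 genes, 8 lie in the H2 complex of chromosome 17. On the GRCm38 build these are Tapbp at chr17:33919478-33929290, H2-K1 at chr17:33996012-34000619, Tap1 at chr17:34187556-34197225 and Psmb8 at chr17:34198195-34201454. They are followed by H2-Ab1 at chr17:34263227-34269418, H2-Aa at chr17:34282744-34287823, H2-Eb1 at chr17:34305867-34316674 and H2-D1 at chr17:35263094-35267497. B2m lies at chr2:122147687-122153082, and Cd74 lies on neither chromosome. The class I heavy chain genes are similar and highly polymorphic copies of each other. How the authors' alignment divided reads among such copies is not given in the sources used here, so the levels of H2-K1 and H2-D1 are uncertain in that respect.

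MHC promoters are known for a shared module in which a cyclic-AMP-response-like box, with the core TGACG, lies upstream of an inverted CCAAT box, with the core ATTGG. RefSeq windows of GRCm38.p6 were matched for 8 of the 10 genes, all except H2-Ab1 and Cd74. The 250 bases before the transcription start were searched on both strands. TGACG followed by ATTGG on the same strand, with 20 to 21 bases between, was found in H2-K1, H2-D1, B2m and H2-Aa. The same pair was in 50 of 32851 windows, 0.152%, while TGACG alone was in 17.8% of windows and ATTGG alone in 33.8%. It was not found in the windows of Tap1, Tapbp, Psmb8 and H2-Eb1, which says only that these letters are not there. The windows that hold the pair, of 3 class I genes and 1 class II gene, are shown side by side. Of the genes called lower in the busulfan libraries below, H2-K1, H2-D1 and B2m hold the pair, and Tapbp and Psmb8 do not. A link between the pair and any change was not tested. The 5′ to 3′ sequence on each gene's own strand is in lower case, and capitals mark the TGACG and ATTGG of the pair. The windows are chr17:34000348-34000597 on the minus strand for H2-K1, chr17:35262844-35263093 on the plus strand for H2-D1, chr2:122147437-122147686 on the plus strand for B2m and chr17:34287824-34288073 on the minus strand for H2-Aa.
H2-K1: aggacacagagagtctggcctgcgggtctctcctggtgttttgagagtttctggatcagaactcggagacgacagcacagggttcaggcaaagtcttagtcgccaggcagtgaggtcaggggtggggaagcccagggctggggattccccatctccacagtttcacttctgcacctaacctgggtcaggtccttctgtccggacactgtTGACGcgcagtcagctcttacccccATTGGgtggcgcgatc
H2-D1: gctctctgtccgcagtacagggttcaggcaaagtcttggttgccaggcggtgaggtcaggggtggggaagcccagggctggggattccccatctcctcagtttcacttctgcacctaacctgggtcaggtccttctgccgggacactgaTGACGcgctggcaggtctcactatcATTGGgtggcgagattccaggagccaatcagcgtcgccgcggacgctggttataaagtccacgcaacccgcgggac
B2m: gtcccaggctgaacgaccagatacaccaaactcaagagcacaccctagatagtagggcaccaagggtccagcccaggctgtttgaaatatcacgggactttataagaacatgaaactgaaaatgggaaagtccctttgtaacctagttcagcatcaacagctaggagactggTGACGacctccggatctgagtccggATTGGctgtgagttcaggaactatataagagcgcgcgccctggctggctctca
H2-Aa: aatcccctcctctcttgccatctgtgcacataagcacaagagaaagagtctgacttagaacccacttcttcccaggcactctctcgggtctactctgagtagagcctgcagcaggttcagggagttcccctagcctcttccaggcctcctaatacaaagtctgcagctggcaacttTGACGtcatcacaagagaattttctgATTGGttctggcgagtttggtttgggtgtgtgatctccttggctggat
Counted from the transcription start, the first base of TGACG lay at -41 in the H2-K1 window shown, -101 in H2-D1, -78 in B2m and -74 in H2-Aa. RefSeq has another start of H2-K1, with the window chr17:34000334-34000583, from which the same base is at -55. The span of H2-K1 given above reaches 34000619, so both windows lie within it and count from starts inside the annotated gene. In H2-K1, H2-D1 and B2m 20 bases separated the pair, and in H2-Aa 21 did. The match is a description of letters and not of a bound site.

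The FPKM of a library summed to between 417242 and 535515, and read depth is unknown. Transcripts of 6 late spermatid markers summed to 1504 to 18350 FPKM in the 6 libraries without busulfan and to 28380 to 38070 FPKM in the 6 with it, so the libraries labelled busulfan held more spermatid RNA, which is not the direction that a loss of germ cells gives. Groups are called by their labels throughout. Within the L.J. group, replicate 2 had the lowest sum of 10 Sertoli cell markers outside the busulfan groups, 845.8 FPKM, and replicate 3 had the highest of all, 4156 FPKM. Replicate 3 stood apart from L.J. replicate 1, at 1064 FPKM, and replicate 2 lay near it. Replicate 2 stood apart in late spermatid markers, at 18350 FPKM against 5131 in L.J. replicate 1 and 3856 in L.J. replicate 3. Results that rest on the L.J. group are given with and without L.J. replicates 2 and 3. Markers of 11 macrophage genes summed to 76.11 to 216.3 FPKM without busulfan and to 41.38 to 51.88 FPKM with it. Control replicate 3 held 115.91 FPKM of Spink8, 132.48 FPKM of Fabp4 and 39.77 FPKM of Cfd, against at most 7.41, 30.84 and 8.79 FPKM in any other library. Of 6 epididymis markers only Spink8 stood apart there, and of 5 adipocyte markers Adipoq did not, and these genes were singled out after their values were seen. In bulk testis, fewer cells of a type, less RNA per cell and a smaller share beside more RNA of other cells cannot be told apart.

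Per transcript length, B2m was the most abundant of the 10 genes, with a mean over the 4 groups of 103.5 FPKM. H2-D1 at 51.87, H2-K1 at 47.22 and Cd74 at 44.06 FPKM followed. The spread of these 3 over libraries was wider than the gaps between them, so their order is not settled by these means. Tapbp stood at 29.27 FPKM. H2-Ab1 at 9.643 and H2-Aa at 8.787 FPKM were close neighbours, and Tap1 at 2.033, Psmb8 at 1.249 and H2-Eb1 at 1.147 FPKM were the lowest. The transporter and immunoproteasome subunits thus lay far below the light chain of the same path.

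**Figure D1:**
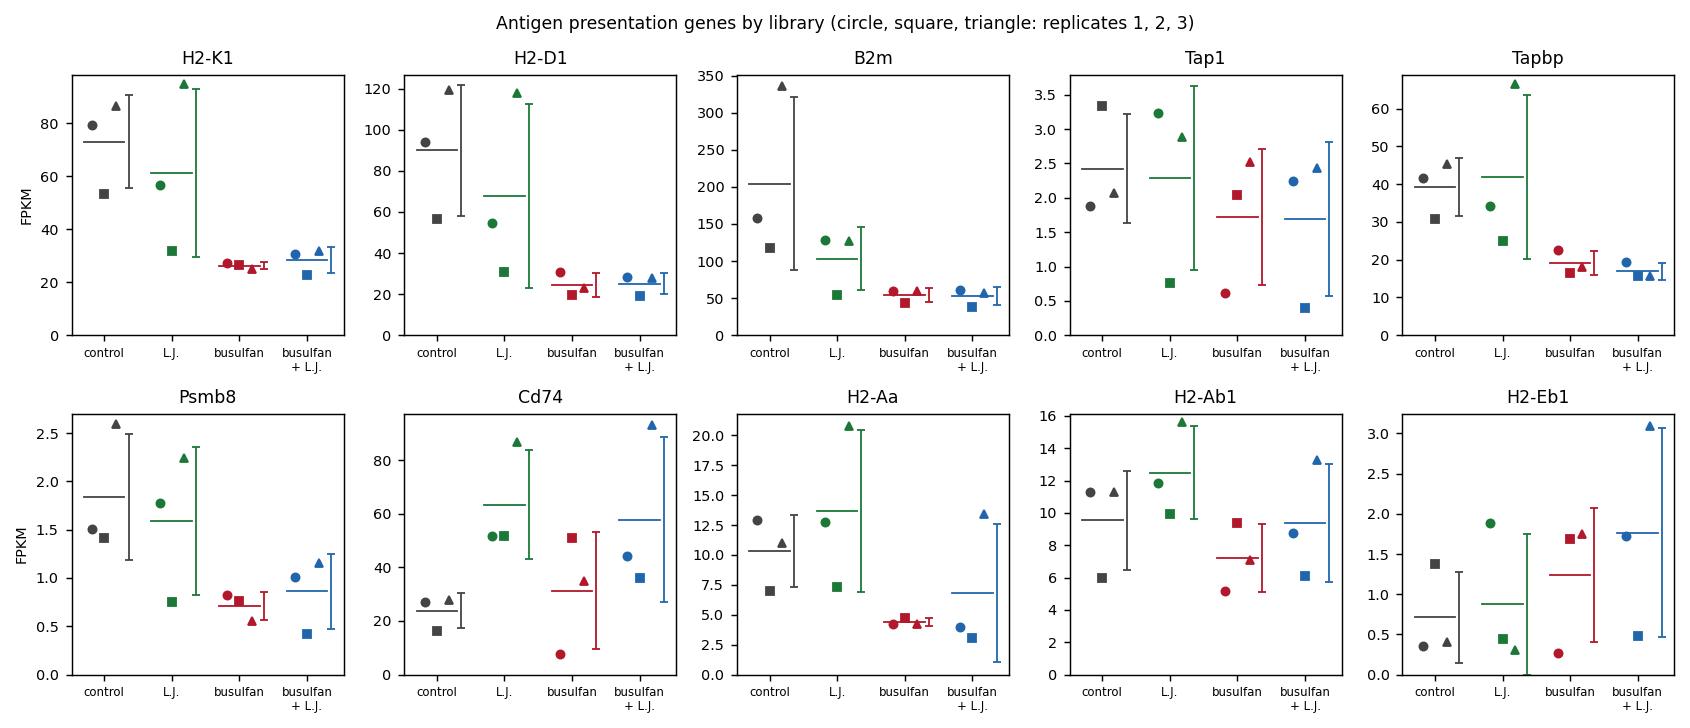
FPKM of each of the 10 genes in each of the 12 libraries by group, with circles, squares and triangles for replicates 1, 2 and 3, a line at the group mean and a bar of 1 SD (n = 3). Tapbp, Psmb8, B2m and the heavy chain genes sit lower in busulfan than in control with no overlap, while Cd74 and H2-Eb1 spread widely inside most groups.

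The first comparison, busulfan against control, asks which genes differ in the testis of mice given the drug. In it, 5 of the 10 genes were lower and 0 were higher at an adjusted p under 0.05, from limma on log2(FPKM + 1) with Benjamini-Hochberg adjustment over all 14675 genes. All 5 belong to the class I path, 5 of its 6 genes, and 0 of the 4 class II genes passed. The background of this comparison is high, because 51.4% of all genes tested were lower, 12.4% were higher, and 63.7% passed in either direction. A count of 5 of 10 is near that background and is not a result about these genes. The 3 busulfan values lay below all 3 control values in 6 of the 10 genes, the 5 called and H2-Aa, beside 60.7% of all genes. Without control replicate 3, or without busulfan replicate 2, 3 genes were called, H2-K1, H2-D1 and B2m, beside 39.8% and 46.2% of all genes. The median log2 change was -1.21 over the class I genes and -0.13 over the class II genes, beside -0.51 over all genes tested.

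The heavy chains were lower in every busulfan library. H2-K1 measured 79.55, 53.18 and 86.64 FPKM in the controls and 27.36, 26.47 and 24.94 FPKM in the busulfan libraries. The groups did not overlap, and the busulfan values lay close together. From 73.1 ± 17.6 to 26.3 ± 1.22 FPKM (SD, n = 3), the log2 change was -1.41 ± 0.32 (SE, limma adjusted p = 0.00581). H2-D1, the other heavy chain, measured 94.20, 56.33 and 119.36 FPKM in the controls and 30.92, 19.54 and 23.20 FPKM in the busulfan libraries. Its groups did not overlap either, and its log2 change was -1.79 ± 0.42 (SE, limma adjusted p = 0.00610).

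B2m, the light chain without which class I heavy chains do not reach the surface, measured 157.78, 117.60 and 336.54 FPKM in the controls and 59.24, 43.45 and 60.18 FPKM in the busulfan libraries. Every busulfan value was below every control value, and control replicate 3 was far above the other controls. Its log2 change was -1.76 ± 0.40 (SE, limma adjusted p = 0.00581), and without control replicate 3, the library with high Spink8, Fabp4 and Cfd, it was -1.33 (adjusted p = 0.0260). Whether the B2m level of that library goes with those transcripts was not tested.

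The loading and peptide-cutting genes did not move alike. Tapbp, the tapasin gene, measured 41.74, 30.75 and 45.24 FPKM in the controls and 22.55, 16.41 and 18.06 FPKM in the busulfan libraries. The groups did not overlap, and the log2 change was -1.0 ± 0.29 (SE, limma adjusted p = 0.0137). Psmb8, the immunoproteasome subunit, was low throughout, with 1.51, 1.41 and 2.59 FPKM in the controls and 0.82, 0.76 and 0.55 FPKM in the busulfan libraries. All 3 busulfan values lay under the 1 FPKM of the filter, which Psmb8 passed through the control libraries and, without them, through 4 libraries given L.J. Its log2 change of -0.71 ± 0.25 (SE, limma adjusted p = 0.0302) rested on few libraries, since the adjusted p was 0.123 without control replicate 3, 0.0639 without busulfan replicate 2 and 0.0905 without busulfan replicate 3. The call of Tapbp was lost in the same way without control replicate 3 (adjusted p = 0.0540) or without busulfan replicate 2 (adjusted p = 0.0501).

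Tap1 was the class I gene that did not pass. It measured 1.88, 3.33 and 2.07 FPKM in the controls and 0.61, 2.04 and 2.52 FPKM in the busulfan libraries, with overlapping groups and a log2 change of -0.38 ± 0.43 (SE, limma adjusted p = 0.445). Its values spread widely inside each group, so that a busulfan library was the lowest of the 6 and another lay above 2 of the controls. Tap2, which encodes the partner subunit of the transporter, averaged 3.51 ± 0.599 FPKM in the controls and 1.67 ± 0.613 FPKM in the busulfan libraries.

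None of the class II genes passed the test. H2-Aa, the alpha chain, measured 12.89, 7.02 and 11 FPKM in the controls and 4.19, 4.74 and 4.24 FPKM in the busulfan libraries. The groups did not overlap, but its log2 change of -1.03 ± 0.45 (SE) missed the threshold (limma adjusted p = 0.0620). Fitted on the control and busulfan libraries alone, the same difference passed (adjusted p = 0.00349). H2-Ab1, its beta chain partner, measured 11.31, 5.98 and 11.30 FPKM in the controls and 5.14, 9.36 and 7.09 FPKM in the busulfan libraries, which overlapped, and its log2 change was -0.35 ± 0.31 (SE, limma adjusted p = 0.338). H2-Eb1, a beta chain of the other class II isotype, measured 0.35, 1.37 and 0.41 FPKM in the controls and 0.27, 1.69 and 1.75 FPKM in the busulfan libraries. Low and high libraries occurred in both groups, and the log2 change was 0.35 ± 0.44 (SE, limma adjusted p = 0.492).

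Cd74, the invariant chain, measured 27.22, 16.24 and 27.92 FPKM in the controls and 7.83, 51.06 and 34.89 FPKM in the busulfan libraries. Busulfan replicate 1 was the lowest library of all 12 and replicate 2 was above all controls, so the busulfan group spread beyond the controls on both sides. The log2 change was 0.08 ± 0.57 (SE, limma adjusted p = 0.913), and it ran from -0.44 to 0.84 as single libraries were left out, so it has no settled sign.

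**Figure D2:**
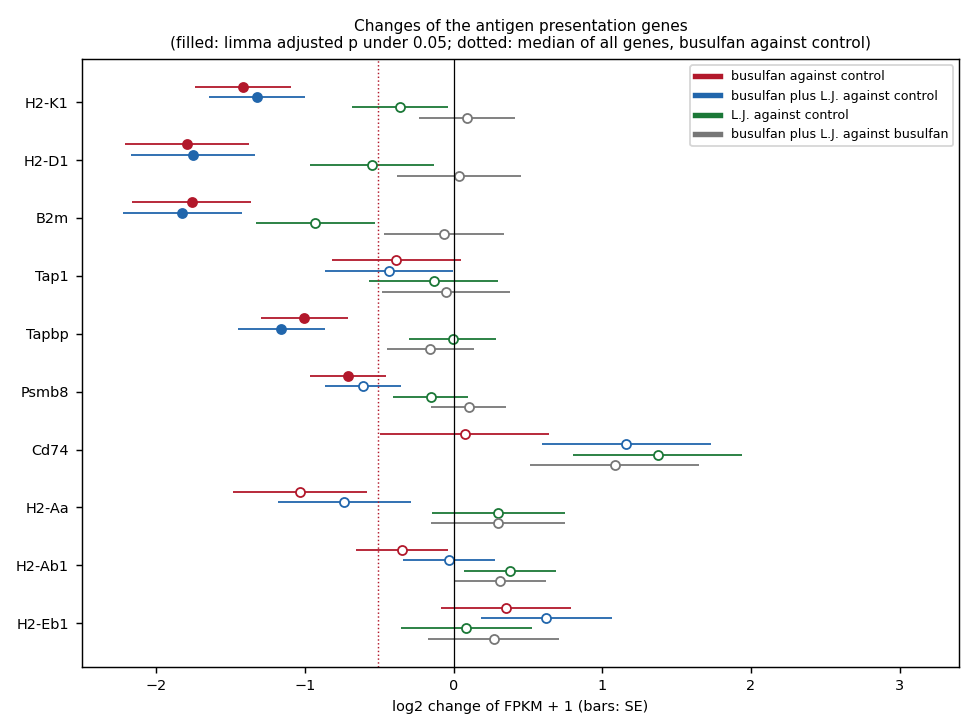
Log2 change of each of the 10 genes with its SE for the comparisons of the 4 groups, with filled points for an adjusted p under 0.05 from limma and a dotted line at the median of all genes in busulfan against control, -0.51. The class I genes other than Tap1 lie below that line in busulfan against control, and Cd74 lies above 0 by more than 1 in each comparison of an L.J. group with its counterpart without L.J.

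The direction of these changes depends on the scale on which libraries are made comparable, since most genes were lower in the busulfan libraries. Of all genes called on the deposited scale 19.4% were higher, against 47.0% with quantile normalization, 61.0% with scaling to the library median, 98.6% with scaling to Sertoli cell markers and 95.7% with scaling to macrophage markers. With each library scaled to its median, the class I median was -0.60 beside 0.01 for all genes, and with quantile normalization it was -1.10 beside -0.16. Scaled to Sertoli cell markers the class I median was 0.07 beside 0.75 for all genes, and scaled to macrophage markers it was -0.14 beside 0.51. In the same order of scales the class II median was 0.42, 0.25, 0.99 and 0.79. Under each of these scales, as on the deposited one, the class I median lay below that of all genes. The median of the 4 class II genes lay above it. The 10 other tested genes of the class II path went the other way, with a median below that of all genes on each scale. It was -0.72 on the deposited scale and -0.29, -0.31, 0.25 and 0.10 in the same order of scales. Scaling to the library median, to Sertoli cell markers or to macrophage markers divides all genes of a library by the same factor. Each such scaling shifts all log2 changes nearly alike, so these positions beside the median of all genes were largely fixed in advance. Only quantile normalization could have changed them. H2-K1, Tapbp and Psmb8 were at 0.0578, 0.45 and 0.0840 when scaled to Sertoli cell markers, and H2-D1 and B2m stayed below 0, at -0.32 and -0.27, without passing the test. Relative to Sertoli or macrophage transcripts, no class I gene was thus called lower in the busulfan libraries. Only 66 and 232 of all 14675 genes were called lower on these scales, so this is not particular to the class I genes.

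Ratios of 2 genes inside a library do not depend on that scale. Of 7 ratios in 2 comparisons, 14 tests in all, 0 passed after adjustment, in a design of 3 against 3 libraries whose smallest possible exact permutation p is 0.1 (two-sided). H2-Ab1 relative to Csf1r, the receptor gene that marks macrophages, was 1.42, 1.09 and 1.09 in the controls and 2.15, 6.27 and 3.38 in the busulfan libraries. The groups did not overlap, with a difference of 1.59 on the log2 scale (exact permutation p = 0.1, adjusted p = 0.636), and Csf1r itself averaged 7.94 ± 2.46 FPKM in the controls and 1.93 ± 0.474 FPKM in the busulfan libraries (SD, n = 3). H2-Aa relative to H2-Ab1, the chains of 1 heterodimer, was 1.14, 1.17 and 0.974 in the controls and 0.819, 0.512 and 0.604 in the busulfan libraries. These groups did not overlap either, with a difference of -0.79 on the log2 scale (exact permutation p = 0.1, adjusted p = 0.636). H2-K1 relative to B2m, H2-D1 relative to H2-K1, Psmb8 relative to its constitutive counterpart Psmb5 and Tap1 relative to Tap2 had overlapping groups, with exact permutation p from 0.2 to 0.5.

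Of the other genes of the pathway, 77 were in the table and 55 were tested. In busulfan against control 34 were lower and 1 was higher, with a median log2 change of -0.77, beside 51.4% of all genes lower and a median of -0.51 over all genes. The counts by role that follow are to be read against that share. Among molecules of class I structure, 5 of 10 were lower, among them Fcgrt, the neonatal Fc receptor, at -1.70, and Mr1, which presents vitamin metabolites, at -1.19. Of the genes that supply peptides, 6 of 10 were lower, led by the proteasome activator subunits Psme2 at -2.10 and Psme1 at -1.46, with the constitutive subunit Psmb5 at -0.77. Of 4 chaperones and partners of loading in the endoplasmic reticulum 3 were lower, and the 2 with the largest change were calnexin (Canx) at -0.93 and calreticulin (Calr) at -0.66. The call of Calr was lost without control replicate 1 (limma adjusted p = 0.0605).

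Of the other genes of the class II path, 5 of 10 were lower, with the lysosomal proteases Lgmn at -1.68 and Ctss at -1.50 in front. Regulators of the pathway were lower in 15 of 18, with the interferon gamma receptor subunit Ifngr1 and the kinase Jak1 both at -1.38. That count was 3 with quantile normalization, 5 lower and 1 higher with scaling to the library median, 0 lower and 3 higher with scaling to Sertoli cell markers and 0 lower and 2 higher with scaling to macrophage markers. Over all 14675 genes, 2761, 1980, 66 and 232 were lower on these scales and 2448, 3102, 4774 and 5164 were higher. The gene that was higher was Cd8b1, a co-receptor chain of T cells, at 0.49 from 0.553 ± 0.133 to 1.19 ± 0.312 FPKM (SD, n = 3), and its call was lost without control replicate 1 (limma adjusted p = 0.0785), busulfan replicate 2 (0.0633) or busulfan replicate 3 (0.0766). Cd8b1 was under 1 FPKM in every library without busulfan and passed the filter only through libraries with it, the side on which it was higher, so its call is no support for a change. The inducer Ifng was listed at 0 in all 12 libraries, and Ciita, the master regulator of class II transcription, reached at most 0.19 FPKM.

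Busulfan plus L.J. was also set against control, with the same control libraries as above. Here 4 of the 10 genes were lower and 0 were higher, beside a background of 53.5% lower and 66.5% in either direction. They were H2-K1 at -1.32, H2-D1 at -1.75, B2m at -1.82 and Tapbp at -1.16, with limma adjusted p from 0.00390 to 0.00666. Psmb8 at -0.61 missed the threshold (limma adjusted p = 0.0522). H2-K1 measured 30.70, 22.64 and 31.65 FPKM in the busulfan plus L.J. libraries, H2-D1 measured 28.45, 19.31 and 27.71 FPKM, and B2m measured 61.59, 38.54 and 56.94 FPKM. All of these lay below every control value, as did those of Tapbp and Psmb8, so the groups were apart downward in 5 of the 10 genes, beside 63.4% of all genes. Of the other pathway genes tested, 35 were lower and 2 were higher, Irf2 and Cd8b1.

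Against L.J. alone, 3 of the 10 genes were lower in busulfan plus L.J. and 0 were higher, beside a background of 39.8% lower and 51.5% in either direction. They were H2-K1 at -0.96 (limma adjusted p = 0.0299), H2-D1 at -1.21 (limma adjusted p = 0.0332) and Tapbp at -1.15 (limma adjusted p = 0.0158), with B2m at -0.89 just outside (limma adjusted p = 0.0782). In the L.J. libraries H2-K1 measured 56.89, 31.77 and 94.81 FPKM, H2-D1 measured 54.79, 30.83 and 117.74 FPKM, and Tapbp measured 34.30, 25.03 and 66.45 FPKM. In each of them L.J. replicate 3 was the highest and L.J. replicate 2 the lowest, as in the Sertoli cell markers of that group. With replicate 1 as the sole L.J. library H2-K1 was at -1.0, H2-D1 at -1.11 and Tapbp at -0.99. That fit assumes that this library varies like those of the other groups. The comparison depends on which libraries enter, since 6 of the 10 genes were called without L.J. replicate 2, beside 9385 of all genes, and 1 without L.J. replicate 1 or 3, beside 6048 and 6138. It was 1 without busulfan plus L.J. replicate 1 or 2, beside 3871 and 3573, and 0 without busulfan plus L.J. replicate 3, when 0 of all 14675 genes were called. Calls over all genes fell too, from 7556, wherever those of the 10 genes did, but to 0 only without busulfan plus L.J. replicate 3. Whether the 10 genes lost calls more often than other genes was not tested.

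The question of L.J. itself was addressed by 3 tests, and none called any of the 10 genes. With array weights 0 of 10 were called in the comparison of L.J. on top of busulfan, beside 0.436% of all genes, 3 in L.J. against control, beside 35.2%, and 2 in the interaction, beside 17.2%. These counts are near their backgrounds. In busulfan plus L.J. against busulfan 0 of 10 genes passed, beside a background of 0% of all genes, and 0 of the 10 had an unadjusted p under 0.05. The class I genes ran from -0.16 to 0.10 on the log2 scale, a narrow range around 0, and the class II genes ran from 0.27 to 1.09, with Cd74 the highest. For none of the 10 genes were the groups apart, beside 8.58% of all genes. In L.J. against control 0 of 10 passed, beside a background of 0%, and 2 of the 10, Cd74 and B2m, had an unadjusted p under 0.05. The interaction of busulfan and L.J. called 0 of 10, beside 0% of all genes, and 0 had an unadjusted p under 0.05. Its largest value was 0.86, for B2m. Of the other pathway genes 0 passed in any of these 3 tests.

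Cd74 was the gene with the largest change in the 2 direct comparisons of L.J. It measured 51.58, 51.71 and 86.90 FPKM in the L.J. libraries, above every control, for a log2 change of 1.37 that did not pass (limma adjusted p = 0.843). It was the only 1 of the 10 genes whose groups were apart in L.J. against control, where 1.10% of all genes were apart in that direction and 9.07% in either. With L.J. replicate 1 as the sole L.J. library the log2 change was 1.12 (limma adjusted p = 0.615), with the spread taken from the other groups alone. In the busulfan plus L.J. libraries Cd74 measured 44.26, 36.01 and 93.05 FPKM, which overlapped with busulfan for a log2 change of 1.09 ± 0.57 (SE, limma adjusted p = 1) and was above every control for a log2 change of 1.16 (limma adjusted p = 0.0888), beside 17.2% of all genes apart in that direction. The last of these passed without busulfan replicate 1 (adjusted p = 0.0194), in a fit of the 2 groups alone (adjusted p = 0.0199) and with array weights (0.85, adjusted p = 0.0332). These fits called 64.6%, 76.2% and 84.8% of all genes. As single libraries were left out, the change ran from 0.76 to 1.43 (limma adjusted p from 0.0194 to 0.293). It passed with no other library left out. It also passed at 1.82 with scaling to the library median (adjusted p = 0.0321), at 2.56 with scaling to Sertoli cell markers (adjusted p = 0.0126) and at 2.26 with scaling to macrophage markers (adjusted p = 0.0114). These scales called 40.5%, 28.3% and 32.9% of all genes, and of the genes called 57.99%, 97.2% and 88.85% were higher.

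Cd74 was also set beside its class II partner inside each library. There, Cd74 relative to H2-Ab1 was 2.39, 2.69 and 2.46 in the controls and 4.32, 5.16 and 5.54 in the L.J. libraries. It was 1.51, 5.41 and 4.87 in the busulfan libraries and 5.01, 5.82 and 6.97 in busulfan plus L.J. The 3 controls and busulfan replicate 1 thus held under 3 Cd74 transcripts per length for each of H2-Ab1, and the other 8 libraries held over 4. The difference between busulfan and control was 0.44 on the log2 scale (exact permutation p = 0.4), and that between busulfan plus L.J. and busulfan was 0.78 (exact permutation p = 0.2). H2-Ab1 measured 11.87, 9.95 and 15.60 FPKM in the L.J. libraries and 8.76, 6.10 and 13.26 FPKM in busulfan plus L.J., overlapping with the controls in both. H2-Aa measured 12.74, 7.36 and 20.81 FPKM in the L.J. libraries and 3.96, 3.07 and 13.42 FPKM in busulfan plus L.J., where replicate 3 was at the level of the controls.

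Markers of the cells that hold the class II path moved differently from each other. The 5 B cell markers summed to 2.05, 2.93 and 2.31 FPKM in the controls and to 5.70, 3.72 and 3.31 FPKM in the L.J. libraries. They summed to 2.63, 8.32 and 5.18 FPKM in the busulfan libraries and to 6.31, 5.44 and 18.44 FPKM in busulfan plus L.J. The same libraries were thus low in both, the 3 controls and busulfan replicate 1, and busulfan plus L.J. replicate 3 was the highest in both. The share of all genes with this split was not counted. Ptprc, a marker of all leukocytes, did not have it, at 0.72 to 1.32 FPKM in the controls and 0.42, 0.47 and 1.89 FPKM in busulfan plus L.J. Nor did the markers of T and natural killer cells, at 4.07 to 4.80 FPKM in the controls and 6.48 FPKM in busulfan replicate 1. Their highest sum, 10.67 FPKM, was in busulfan plus L.J. replicate 3. Cd79a, the antigen receptor chain that defines B cells, was at 0.18, 0.22 and 0.57 FPKM in the controls, at 0 in busulfan replicate 1 and at 11.16 FPKM in busulfan plus L.J. replicate 3. The 11 macrophage markers ran otherwise, with 41.38 to 43.48 FPKM in the busulfan group, 45.99 to 51.88 FPKM in busulfan plus L.J. and 76.11 to 216.3 FPKM elsewhere. The 8 dendritic cell markers stayed between 4.06 and 7.40 FPKM. The part of B cell transcripts in the Cd74 level was not tested.

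**Figure D3:**
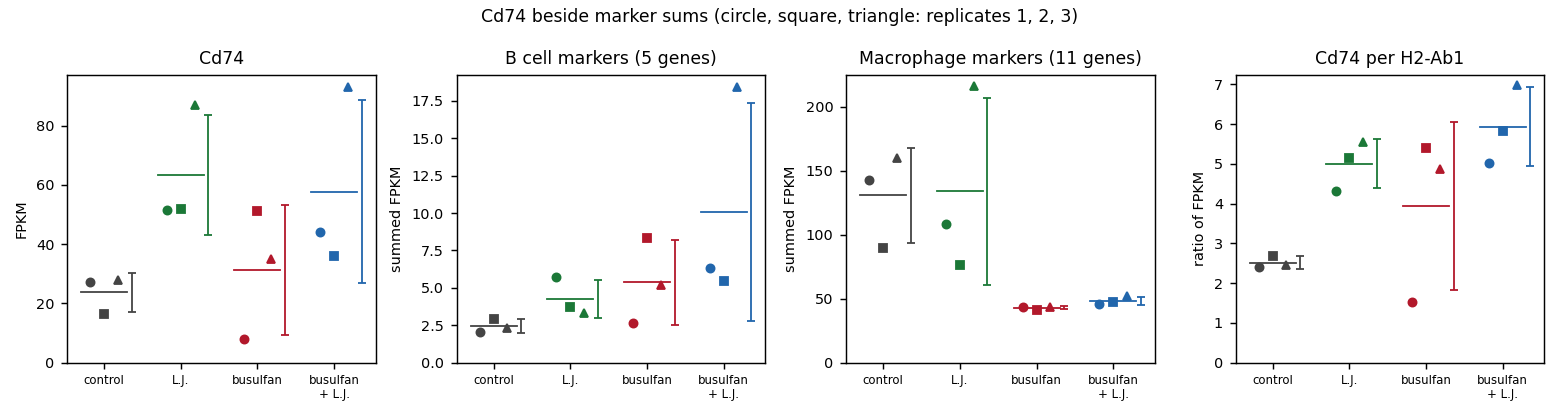
Cd74 level in FPKM, summed FPKM of 5 B cell markers, summed FPKM of 11 macrophage markers and the ratio of Cd74 to H2-Ab1 in each of the 12 libraries by group, with circles, squares and triangles for replicates 1, 2 and 3, a line at the group mean and a bar of 1 SD (n = 3). The 3 controls and busulfan replicate 1 are the lowest in Cd74, in B cell markers and in the ratio, while the macrophage markers are lowest in the 6 libraries with busulfan.

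The genes whose pattern over the 12 libraries was most like the mean of the class I genes were Cox6b1, a subunit of respiratory complex IV, with a Pearson r of 0.995, Pla2g16, a phospholipase, with 0.993, and Reep5, a protein that shapes the endoplasmic reticulum, with 0.987. The class II mean was less closely matched, by Gpsm3 at 0.881, Septin1 at 0.867 and Adrm1 at 0.856. These r describe 12 libraries that share the difference between libraries with and without busulfan and carry no p.

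H2-Eb1 held a low and a high level inside every group. It measured 1.88, 0.44 and 0.30 FPKM in the L.J. libraries and 1.73, 0.48 and 3.09 FPKM in busulfan plus L.J., beside the values of the other groups above. Replicate 2 of the controls, replicate 1 of L.J., replicates 2 and 3 of busulfan and replicates 1 and 3 of the combined treatment were at 1.37 to 3.09 FPKM, and the other 6 libraries were at 0.27 to 0.48 FPKM. Tap1, which starts at -118.3 kb from the start of H2-Eb1, had the same libraries above the same others inside every group, with 3.33 FPKM in control replicate 2 against 1.88 and 2.07, and 0.76 and 0.40 FPKM in L.J. replicate 2 and busulfan plus L.J. replicate 2. For Tap1 the L.J. group held 3.24, 0.76 and 2.88 FPKM, in which replicate 3 lay closer to replicate 1 than it did for H2-Eb1.

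This order of libraries, noticed after the values were seen, was shared by few genes of the table, several of them in the same part of the H2 complex. Among all genes, 86 of 14674 other tested genes, 0.586%, had every higher library of H2-Eb1 above every lower one inside each of the 4 groups. Of these 86, 14 were placed on chromosome 17, where 732 genes besides H2-Eb1 were tested, so most were not near H2-Eb1. In the 191 kb from H2-DMb1 to H2-Ea-ps, at chr17:34153191-34344645, 6 of 9 had the order, beside 1 of 77 in the rest of the 1000 kb on each side. The ends of the stretch were set at genes that have the order, so the contrast between these counts follows in part from how it was drawn. Of the 5 tested genes whose starts are nearest to that of H2-Eb1, H2-Aa, H2-Ab1 and BC051142 did not have the order, while H2-Ea-ps and H2-Ob did. The 6 were H2-DMb1, a chain of the class II peptide exchange factor, Psmb9, an immunoproteasome subunit, both TAP genes Tap1 and Tap2, H2-Ob, a chain of the inhibitor of that exchange factor, and the pseudogene H2-Ea-ps. After the group means were taken out, the correlation with H2-Eb1 over 12 libraries was 0.949 for H2-Ob, 0.931 for H2-Ea-ps, 0.831 for H2-DMb1, 0.816 for Tap1, 0.759 for Psmb9 and 0.712 for Tap2. Among all tested genes, Nsmce2 on chromosome 15 came next after H2-Ob and H2-Ea-ps, at 0.925, and had the order too. The 3 genes of the stretch without that order were Psmb8 at 0.18, H2-Ab1 at 0.30 and H2-Aa at 0.28, which lie among the others. Outside it, H2-K1 was at -0.05, H2-D1 at -0.23 and Tapbp at -0.39. The r are descriptions of libraries and carry no p.

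**Figure D4:**
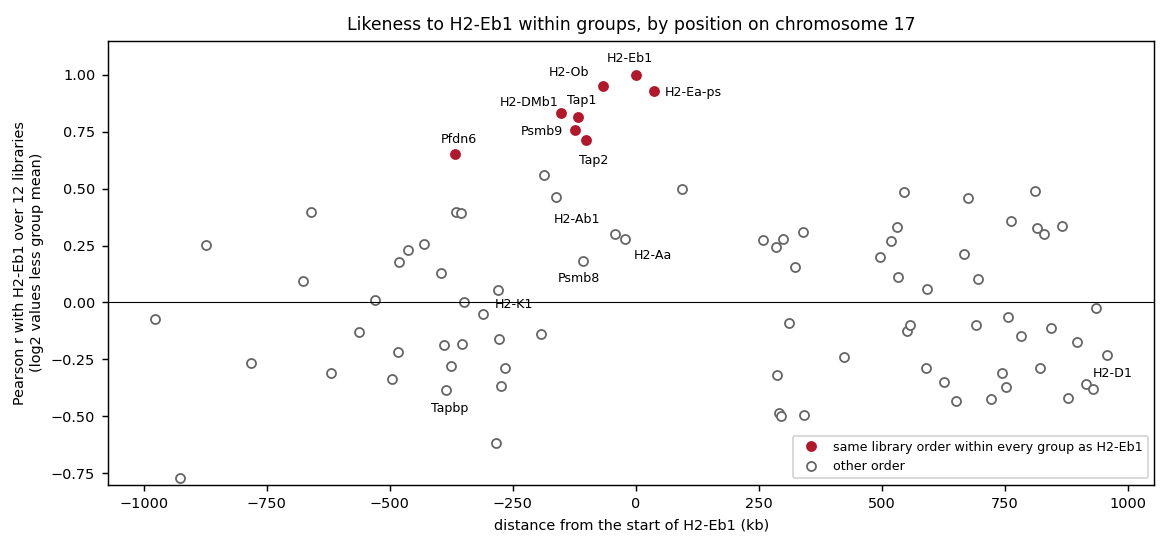
Correlation with H2-Eb1 over the 12 libraries, after group means were taken out, for each tested gene within 1000 kb of its start, against distance in kb, with filled points for genes whose libraries fall in the same order inside each group. Filled points lie on both sides of H2-Eb1, with open points of H2-Aa and H2-Ab1 between them, and most other genes of the window lie between -0.5 and 0.5.

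As background, ICR is an outbred stock, the H2 complex is among the most polymorphic regions of the mouse genome, and the reference strain C57BL/6 does not express the alpha chain that pairs with H2-Eb1. The labels give no haplotype, and neither haplotypes nor the mapping of reads from other alleles to the reference was tested. Of the 10 genes described here, Tap1 and H2-Eb1 shared this order of libraries inside groups, and their changes between groups, none of which passed the test, stand beside that spread.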

How the data were processed

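Total RNA of 12 testis libraries was sequenced on standard Illumina protocols, per the labels. The authors deposited gene levels as FPKM, 1 value for each gene and library, from reads aligned with Bowtie 0.12.2 to mm10, per the submitters' processing notes. How FPKM was computed, with which annotation and whether libraries were scaled to each other is not given in the sources used here. Without counts the depth and the counting error are unknown. Of 21004 genes, 14675 with at least 1 FPKM in at least 3 libraries were tested as log2(FPKM + 1) and 6329 were left out. Changes are on that scale, which understates those of low genes. A linear model with all 4 groups was fitted to each gene in limma 3.58.1 (R 4.3.3) with an intensity trend (8 residual and 3.44 prior degrees of freedom), and was tested on simulated data. P-values were adjusted by Benjamini-Hochberg over all genes tested in a comparison, at a threshold of 0.05. Ratios within a library used FPKM + 0.1 and an exact permutation test. All 10 genes are named. Other pathway genes are named for the 2 largest called changes in each direction and role, plus Psmb5, Tap2 and Csf1r, and like genes are the 3 of highest Pearson r. Positions are from the RefSeq annotation of GRCm38, in which 99.2% of identifiers were found. The members and the lists were chosen with earlier results of these data known. Alternatives covered the replicate block, filters, pseudocounts, scalings, weights and leaving out libraries. Figures were drawn with matplotlib 3.10.9.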

Additional observations from a re-analysis of the deposited data

How the results depend on the processing

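Both array weights and the scale between libraries moved counts of called genes. In busulfan against control, 5 genes became 3 with quantile normalization, 3 with scaling to the library median, 1 (higher, H2-Ab1 at 1.00) with Sertoli scaling, 0 with macrophage scaling and 8 with array weights. With array weights L.J. against control went from 0 to 3, the interaction from 0 to 2, and busulfan plus L.J. against control from 4, all lower, to 8, where median scaling gave 1 higher and 2 lower, and Sertoli and macrophage scaling each gave 2 higher and 0 lower. Of all genes, busulfan plus L.J. against control called 84.8% with array weights and 40.5%, 28.3% and 32.9% with median, Sertoli and macrophage scaling. Against L.J., busulfan plus L.J. went from 3 to 0 in a fit of the 2 groups (0 of all genes, from 7556), 1 without the filter, 1 with quantile normalization, 1 with median scaling, 0 with Sertoli scaling, 0 with macrophage scaling and 6 with array weights. From no filter to array weights, in that order, 31.2%, 24.1%, 25.7%, 30%, 25% and 75.7% of all genes were called. The cause was not tested. Over all genes, 9350 calls in busulfan against control became 5209, 5082, 4840 and 5396 with quantile, median, Sertoli and macrophage scaling, 12669 with array weights, and 5842 to 10909 with a library left out. With array weights, L.J. against control went from 0 to 5162 and the interaction from 0 to 2523 of all 14675 genes. The L.J. group as its replicate 1 alone and the array weights were chosen after the data were seen.

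Same-numbered libraries deviated together in 5 of 18 pairs (correlation -0.175 to 0.759, median -0.0134). Such correlations do not settle whether the numbers pair the samples. With the replicate number as a block, 6, 0, 0, 5, 5 and 0 of the 10 genes were called, in the order busulfan against control, busulfan plus L.J. against busulfan, L.J. against control, busulfan plus L.J. against control, the same against L.J., and the interaction. Of all genes, 65.4%, 0%, 0%, 67.9%, 55.6% and 0% were called in that order. Leaving out each library in turn gave 3 to 6, 0 to 0, 0 to 0, 4 to 5, 0 to 6 and 0 to 0 of the 10 genes. The share of all genes called then ran from 39.8% to 74.3% in busulfan against control. It ran from 47.5% to 76.7% in busulfan plus L.J. against control and from 0% to 64% against L.J. In the tests of L.J. itself it was at most 0.00681%.

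Signs turned in busulfan against control with Sertoli scaling for H2-K1 (0.0578), Tap1 (0.57), Tapbp (0.45), Psmb8 (0.0840), H2-Aa (0.28), H2-Ab1 (1.00), Psmb5 (0.69), Calr (0.85), Canx (0.56) and Jak1 (0.0314), and with macrophage scaling for Tap1 (0.38), Tapbp (0.17), H2-Aa (0.0276), H2-Ab1 (0.74), Psmb5 (0.42), Calr (0.56) and Canx (0.28). They also turned for Tap1 and H2-Ab1 with quantile normalization (0.0868 and 0.19) and median scaling (0.0299 and 0.22), and for Tap1 with array weights (0.16). With Sertoli scaling, busulfan plus L.J. turned for H2-K1 (0.0906) and Tapbp (0.23) against control and for H2-K1 (0.44), H2-D1 (0.20) and Tapbp (0.24) against L.J., where H2-K1 was 0.0206 with macrophage scaling. The ratio of Psmb8 to Psmb5 turned with a pseudocount of 1 (0.0633). Left-out libraries turned Cd74 in busulfan against control (-0.44 to 0.84) and, where busulfan plus L.J. was set against busulfan, the ratios H2-D1 to H2-K1 (-0.21 to 0.0936), Tap1 to Tap2 (-0.52 to 0.0220) and H2-Aa to H2-Ab1 (-0.39 to 0.19).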
